A study of Mus musculus with 36 samples.

Results

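The genes described here are Yap1, Wwtr1, Tead1, Lats2, Amotl2, Ankrd1, Cyr61 and Vgll3, a coactivator pair, their DNA-binding partner and genes known as their targets or regulators. They were chosen by symbol, and all 8 were among the 11337 genes measured. Values came from polyA RNA sequencing of skeletal muscle stem cells (MuSCs, or satellite cells, the resident cells that regenerate muscle fibres) sorted from the hindlimbs of 36 male C57BL6 mice, with 1 library per mouse. The study asked how age, voluntary running and loss of Ccnd1, the gene of cyclin D1, change these cells.

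The wheel cohort of 21 mice had a running wheel in the cage for 3 weeks. The wheel was locked for 6 mice of 3 months, Y(-Ex), and 7 of 18 months, O(-Ex), and it turned freely for 3 mice of 3 months, Y(+Ex), and 5 of 18 months, O(+Ex). Their MuSCs were sorted as CD31-, CD45-, Sca1- and VCAM+. All 15 mice of the Ccnd1 cohort carried Pax7_CreERT2 and R26R_YFP and received tamoxifen, so that Cre, driven by the satellite cell gene Pax7, switched on YFP, and YFP+ cells were sorted 6 weeks later. These were 3 mice of 3 months with Ccnd1 +/+, Y(WT), 4 with Ccnd1 +/flox, Y(HET), and 5 with Ccnd1 flox/flox, Y(KO), beside 3 mice of 18 months with Ccnd1 +/+, O(WT). The labels name no transgene and no drug for the wheel cohort.

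Yap1 and Wwtr1 (the gene of TAZ) encode coactivators that bind no DNA themselves and act on genes through the TEAD transcription factors. The Hippo kinases phosphorylate both proteins and keep them in the cytoplasm, and spreading, stretch and actin tension release them, so the activity of the pathway is set mostly at the protein and not the transcript level. In satellite cells YAP and TAZ are known for roles in activation and proliferation.

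Some of the members, among them Ankrd1 and Cyr61, are themselves known as direct targets, so the promoters were searched for the TEAD core CATTCC on both strands. RefSeq windows (GRCm38.p6, 250 bases before to 50 after the start site) were at hand for 7 members, all except Tead1, and in each of those 7 at least 1 window held the core. Of all 32851 windows of that length, 14.7% held it. That share is per window, while the members were counted per gene, and Wwtr1 and Lats2 had 2 windows each. The members were chosen as genes of this pathway, and no enrichment was tested. The AP-1 site TGANTCA stood in 7.81% of all windows and the CArG box, the site of serum response factor, in 1.63%, and neither was found in a window of a member. The 250 bases before the start are shown in full for Ankrd1, Vgll3 and Cyr61, the members called among genotypes or with running, 5′ to 3′ on the strand of the gene with the core in capitals (GGAATG is the core on the opposite strand).
Ankrd1, chr19:36119845-36120094, minus strand: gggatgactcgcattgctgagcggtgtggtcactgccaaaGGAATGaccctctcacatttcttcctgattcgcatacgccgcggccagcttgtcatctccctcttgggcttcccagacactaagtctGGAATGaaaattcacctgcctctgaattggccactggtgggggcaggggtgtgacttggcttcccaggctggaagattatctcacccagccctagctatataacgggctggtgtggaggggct
Vgll3, chr16:65814939-65815188, plus strand: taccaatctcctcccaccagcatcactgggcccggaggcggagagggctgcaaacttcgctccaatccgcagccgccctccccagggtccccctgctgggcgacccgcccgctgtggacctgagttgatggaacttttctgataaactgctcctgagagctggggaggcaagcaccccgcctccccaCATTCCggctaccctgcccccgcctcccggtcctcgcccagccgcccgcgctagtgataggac
Cyr61, chr3:145649986-145650235, minus strand: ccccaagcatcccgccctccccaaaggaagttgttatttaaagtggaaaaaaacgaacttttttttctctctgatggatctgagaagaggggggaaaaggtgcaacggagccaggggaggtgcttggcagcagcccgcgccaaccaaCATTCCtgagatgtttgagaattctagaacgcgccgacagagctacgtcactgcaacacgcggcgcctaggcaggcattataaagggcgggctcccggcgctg

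Ankrd1 held 2 cores, the first 210 to 205 and the second 123 to 118 bases before the start, both on the opposite strand. Cyr61 and Vgll3 held 1 each on their own strand, 103 to 98 and 63 to 58 bases before the start. For the remaining 4 members the core is shown with its neighbours, 30 bases each, to let the flanks be compared.
Yap1, chr9:8004720-8004749, minus strand: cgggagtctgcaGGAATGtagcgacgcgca
Wwtr1, chr3:57576029-57576058, minus strand: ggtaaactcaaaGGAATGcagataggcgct
Lats2, chr14:57746102-57746131, minus strand: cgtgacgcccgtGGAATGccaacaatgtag
Amotl2, chr9:102717727-102717756, plus strand: ctgaaactctcaCATTCCtggcatagcagc
The core of Lats2 lay 5 to 10 bases after the start of 1 of its 2 windows, and the other window held none. Both windows of Wwtr1, from starts a short distance apart, held the same core. A match is a description of the letters, not evidence that a TEAD protein binds there, and no binding was measured in these cells.

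**Figure D1:**
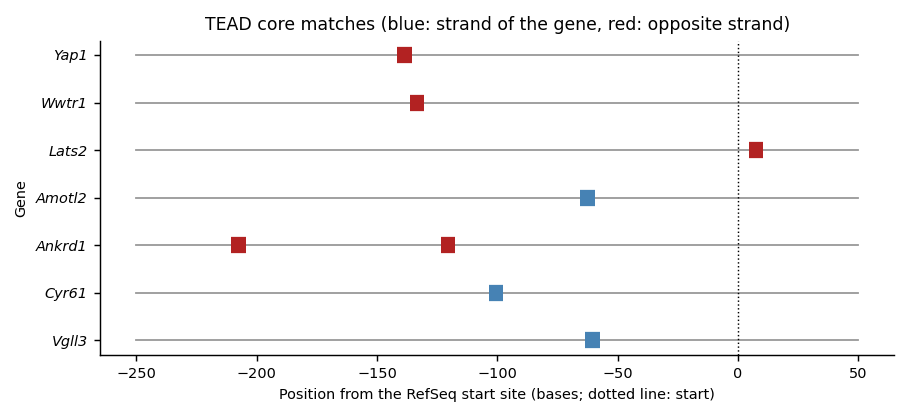
Positions of the TEAD core in the promoter windows of 7 members, in bases from the RefSeq start site (first window of each gene), with blue for the strand of the gene and red for the opposite strand. Ankrd1 is the member with 2 matches, at 210 to 205 and 123 to 118 bases before the start.

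All values are RPKM as deposited (reads per kb of exon scaled to library size), which allows levels to be compared between genes. The controls of the 2 cohorts lay closer to each other in these values than separate mice would by sampling alone, whatever step made them so: between Y(WT) and Y(-Ex), and between O(WT) and O(-Ex), 0 of 11337 genes reached an unadjusted p under 0.05 by limma where 567 were expected. The age comparisons of the 2 cohorts are therefore not independent of each other. Ccnd1 itself stood at 10.6 to 13.3 RPKM in Y(WT), 6.37 to 8.13 in Y(HET) and 2.07 to 3.4 in Y(KO), with no overlap. All 12 satellite cell markers were found, among them Pax7 at 14.2 to 32.5 RPKM, Myf5 at 72.4 to 301 and Vcam1 at 122 to 240 over the 36 libraries. Marker transcripts of other cells were present too, at widely different levels within a list. Among the fibroblast markers Col3a1 was at 142 to 475 RPKM and Pdgfra at 0.289 to 1.26. Among the endothelial markers Cldn5 was at 10.7 to 64.8 RPKM and Vwf at 2.13 to 6.14. Each library is a pool of sorted cells, so that fewer cells of a type and less RNA per cell cannot be told apart.

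The members spanned a wide range of levels. Cyr61 (also Ccn1, a secreted matrix protein; ENSMUSG00000028195, mm10 chr3:145646976-145649981, minus strand) was the most abundant, with a mean of 542 RPKM over the 36 libraries and a range of 330 to 937, and ranked 78 of 11337 genes. Ankrd1, an ankyrin repeat protein of the sarcomere and nucleus (ENSMUSG00000024803, chr19:36111961-36120099, minus strand), averaged 129 RPKM (45.4 to 228). Wwtr1 (ENSMUSG00000027803, chr3:57455649-57575910, minus strand) averaged 98.1 RPKM (78 to 116). These 3 were above 99.3%, 96.8% and 95.8% of all genes. The others were lower. Vgll3, a TEAD-binding cofactor (ENSMUSG00000091243, chr16:65815257-65866368, plus strand), averaged 24.9 RPKM (9.94 to 35.5). Amotl2, a junctional angiomotin that holds YAP in the cytoplasm (ENSMUSG00000032531, chr9:102716672-102733418, plus strand), averaged 15.3 RPKM (8.87 to 21.4). Lats2, a kinase that phosphorylates YAP and TAZ (ENSMUSG00000021959, chr14:57689662-57758388, minus strand), averaged 11.3 RPKM (8.32 to 14.5). Yap1 (ENSMUSG00000053110, chr9:7931999-8004596, minus strand) averaged 8.2 RPKM (5.24 to 13.8) and Tead1 (ENSMUSG00000055320, chr7:112679318-112906807, plus strand) 5.8 (4.35 to 7.97), close to the middle of all genes.

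Per length, the transcript of TAZ thus exceeded that of YAP in all 36 libraries. The ratio of Wwtr1 to Yap1 ran from 11.3 to 16.7 in the 21 young libraries, with a median of 12.7, and from 7.97 to 15.1 in the 15 old ones, with a median of 11.0. Among the TEAD genes the order of levels was not the same at the 2 ages. Tead3 lay above Tead1 in 21 of 21 young libraries and in 4 of 15 old ones. Tead1 made up a median of 29.9% of the summed level of Tead1 to Tead4 in Y(-Ex) and 49.6% in O(-Ex), while that sum had medians of 18.7 and 13.5 RPKM.

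**Figure D2:**
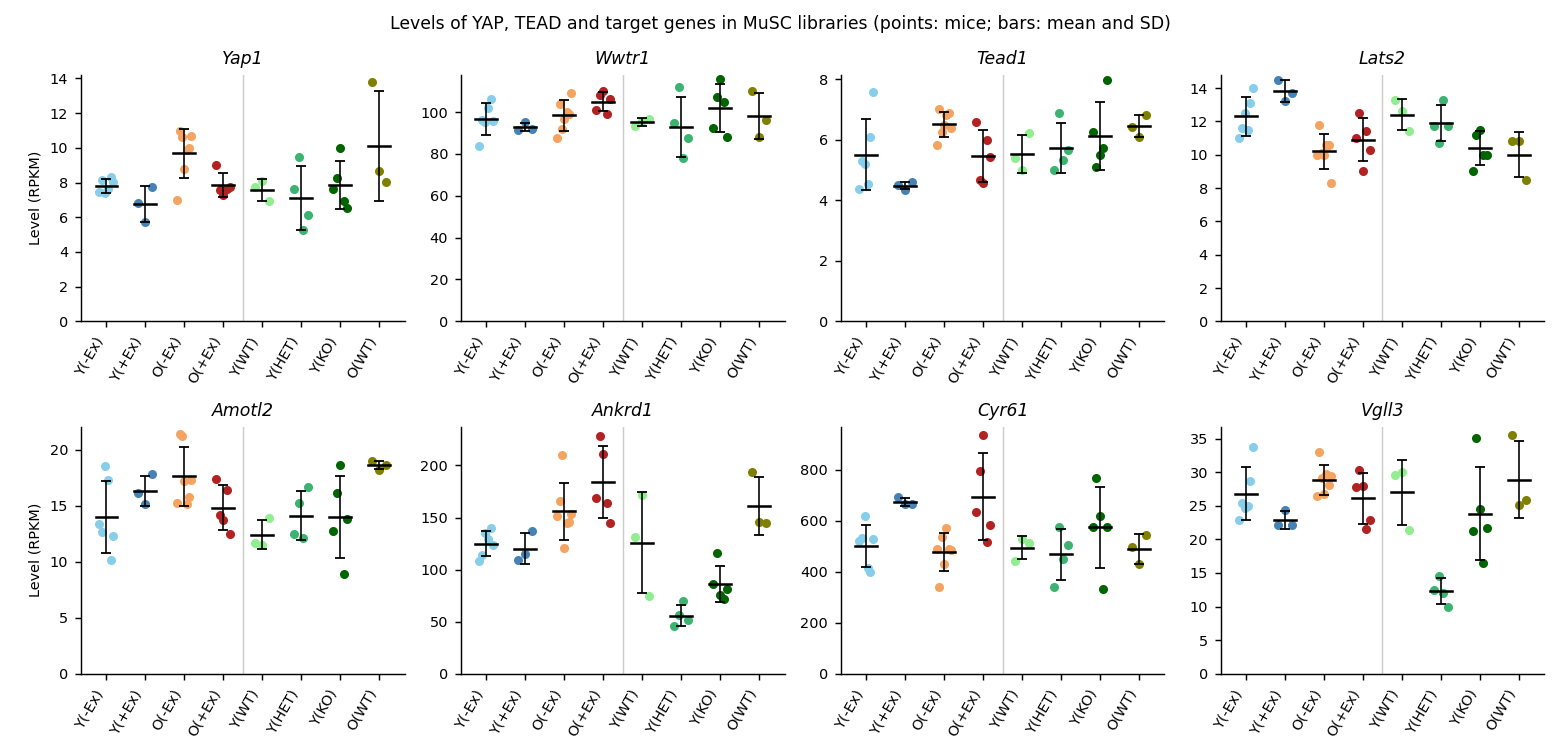
Level of each member in RPKM (vertical axes from 0) in the 8 groups, with 1 point per mouse and bars for the mean and SD. Y(HET) stands lowest for Ankrd1 (45.4 to 69.4 RPKM) and Vgll3 (9.94 to 14.6), and both free-wheel groups stand highest for Cyr61.

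When the 8 group means of a member were put in order, most neighbours differed by less than the larger of their SDs. A step beyond that spread occurred once for Yap1 (O(-Ex) at 9.70 above Y(KO) at 7.87 RPKM), for Tead1 (O(+Ex) at 5.45 above Y(+Ex) at 4.48), for Lats2 (Y(+Ex) at 13.8 above Y(WT) at 12.4) and for Vgll3 (Y(+Ex) at 22.9 above Y(HET) at 12.3). Ankrd1 had 2 steps, from Y(+Ex) at 120 to Y(KO) at 86.1 and on to Y(HET) at 55.6 RPKM. Cyr61, Amotl2 and Wwtr1 had none. From the highest to the lowest group mean, Wwtr1 ran only from 105 RPKM in O(+Ex) to 92.7 in Y(+Ex).

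In the wheel cohort 4 members changed with age, by 0.27 to 0.34 in log2: Yap1, Amotl2 and Ankrd1 were higher and Lats2 was lower in O(-Ex) than in Y(-Ex). Calls here and below are adjusted p-values under 0.05 from limma on log2 RPKM, with Benjamini-Hochberg adjustment over all genes, and in this comparison 38.3% of all genes were called (20.5% higher, 17.8% lower), so that 4 of 8 members is near the background. Yap1 had a lowest, median and highest value of 7.38, 7.83 and 8.32 RPKM in Y(-Ex) and of 6.97, 9.99 and 11.0 in O(-Ex). The old mice lay above the highest young mouse with 1 exception, replicate 1 at 6.97 RPKM. The difference was 0.30 ± 0.10 in log2 (SE; limma, adjusted p = 0.019), higher than the young mean in 6 of 7 mice. It was called whichever of the 13 libraries was left out, at 0.26 to 0.37.

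Lats2 ran from 11.0 over a median of 12 to 14 RPKM in Y(-Ex) and from 8.32 over 10.1 to 11.8 in O(-Ex). The groups overlapped, but all 7 old mice lay below the young mean. Lats2 fell by 0.27 ± 0.08 in log2 (SE; limma, adjusted p = 0.015) and also kept its call without any 1 library. When all 36 libraries entered 1 fit, the limma adjusted p was 0.059 for Yap1, and it ranged from 0.018 to 0.066 for Yap1 and from 0.011 to 0.053 for Lats2 over 7 alternative settings.

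Amotl2 ran from 10.1 over 13.0 to 18.5 RPKM in Y(-Ex) and from 15.1 over 17.2 to 21.4 in O(-Ex). Every old mouse was above the young mean and the groups overlapped, with a difference of 0.34 ± 0.12 in log2 (SE; limma, adjusted p = 0.033). Ankrd1 ran from 108 over 126 to 140 RPKM in Y(-Ex) and from 121 over 151 to 210 in O(-Ex), a difference of 0.31 ± 0.11 (SE; limma, adjusted p = 0.035) with 6 of 7 old mice above the young mean. Both calls depended on single libraries. The limma call for Amotl2 was lost without O(-Ex) replicate 2 or 3 or Y(-Ex) replicate 1, 2, 5 or 6 (adjusted p from 0.055 to 0.1, differences from 0.25 to 0.34). That for Ankrd1 was lost without O(-Ex) replicate 2 or 3 or Y(-Ex) replicate 1, 2 or 6 (adjusted p from 0.054 to 0.082, differences from 0.23 to 0.31). By limma it was also lost with all 36 libraries in 1 fit (adjusted p = 0.094, range over the settings 0.025 to 0.094), and that for Amotl2 when only the compared groups were fitted (adjusted p = 0.058, range 0.022 to 0.058).

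Tead1 did not pass, at 5.51 ± 1.18 RPKM in Y(-Ex) and 6.51 ± 0.412 in O(-Ex) (SD, n = 6 and 7) and a difference of 0.26 ± 0.11 in log2 (SE; limma, adjusted p = 0.066). Its highest young value, 7.59 RPKM in Y(-Ex) replicate 6, exceeded every old one. Without that library the difference was 0.36 and passed (limma, adjusted p = 0.007). The differences of Vgll3 (0.12), Wwtr1 (0.03) and Cyr61 (-0.07) did not pass either, with 95% intervals of -0.07 to 0.31, -0.10 to 0.15 and -0.34 to 0.20.

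Cell markers were called with age as well, in a comparison where limma called 38.3% of all genes (20.5% higher, 17.8% lower). Of 12 satellite cell markers, 1 rose and 6 fell in O(-Ex), with summed levels of 2529 to 3422 RPKM against 2547 to 3218 in Y(-Ex). Most of that sum was Sdc4, at 1948 against 1699 RPKM on average, which was not called (0.19; limma, adjusted p = 0.11). Ankrd1 is also made in muscle fibres, and of the 9 myofibre markers measured 0 rose and 3 fell by limma, with 5 at an unadjusted p under 0.05 and summed levels of 54.7 to 190 RPKM in O(-Ex) and 133 to 690 in Y(-Ex). Over all genes, 5305 of 11337 had an unadjusted p under 0.05 by limma. Of 10 fibroblast markers 4 rose and 2 fell (sums of 542 to 597 and 627 to 945 RPKM), of 10 endothelial markers 2 rose (121 to 184 and 106 to 162), and of 6 tenocyte markers 2 rose (59.8 to 256 and 44.3 to 140). Of 10 smooth muscle and pericyte markers 1 rose and 2 fell, of 6 Schwann cell markers 2 rose, and of 6 haematopoietic markers 1 rose. The deposited values hold no zeros for any gene, so a marker above 0 does not by itself tell that its cells were present. The part of these cells in the differences of the members was not tested.

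In the Ccnd1 cohort no member passed between O(WT) and Y(WT), where limma called 15.8% of all genes. By limma 2 members and 3606 of all 11337 genes had an unadjusted p under 0.05. Amotl2 stood at 19.0, 18.2 and 18.6 RPKM in O(WT) and at 11.7, 11.5 and 13.9 in Y(WT). The groups did not overlap, as for 37.0% of all genes in this comparison of 3 against 3 mice, and the difference was 0.59 ± 0.20 in log2 (SE; limma, adjusted p = 0.06). It passed by limma when only those 2 groups were fitted (adjusted p = 0.017) and when all 36 libraries were (adjusted p = 0.037), and ranged up to 0.095 over the settings. Lats2 was at 10.8, 10.8 and 8.47 RPKM in O(WT) and 13.3, 12.6 and 11.4 in Y(WT), also without overlap (-0.32 ± 0.12, SE; limma, adjusted p = 0.085). Yap1 was at 13.8, 8.65 and 8.01 RPKM in O(WT) against 7.72, 8.11 and 6.91 in Y(WT), so that its difference of 0.38 ± 0.23 rested mainly on the first old mouse, without which it was 0.14. Ankrd1 (0.43), Tead1 (0.23), Vgll3 (0.10), Wwtr1 (0.04) and Cyr61 (-0.01) had 95% intervals that included 0.

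Cyr61 rose with running in old mice. The 5 O(+Ex) libraries held 633, 795, 937, 517 and 583 RPKM, and O(-Ex) ran from 339 over a median of 487 to 570. All 5 runners lay above the sedentary mean and 4 of 5 above every sedentary mouse, and the means were 693 ± 171 (SD, n = 5) and 477 ± 74.9 (SD, n = 7). The difference was 0.52 ± 0.14 in log2 (SE; limma, adjusted p = 0.027), in a comparison where 7.39% of all genes (4.09% higher) and 1 of 8 members were called. The call was lost without O(-Ex) replicate 4 (0.50; limma, adjusted p = 0.054), O(+Ex) replicate 2 (0.46; 0.077) or O(+Ex) replicate 3 (0.41; 0.094), and when only the compared groups were fitted (0.52; 0.053).

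Cyr61 is also known as an immediate early gene, so that group was read beside it. Over all genes limma called 7.39% with running in old mice (4.09% higher), and 2645 of 11337 had an unadjusted p under 0.05. Of 20 immediate early genes, 0 rose and 2 fell by limma in O(+Ex), with 7 at an unadjusted p under 0.05. The falls were of Fosl2, at 37.7 against 47.9 RPKM, and Ier3, at 371 against 480 (not called with all 36 libraries in the fit; limma, adjusted p = 0.096), and the summed level of the list was 6414 to 8017 RPKM in O(+Ex) and 7003 to 8396 in O(-Ex). Of 10 endothelial markers, 3 rose with running in old mice (Kdr, Cldn5 and Egfl7), and their summed level was 177 to 255 RPKM in O(+Ex) and 121 to 184 in O(-Ex). Of 10 fibroblast markers 1 rose and 0 fell by limma (4 at an unadjusted p under 0.05), with sums of 648 to 746 and 542 to 597 RPKM. Of 10 smooth muscle and pericyte markers 1 rose and 2 fell (728 to 1065 and 659 to 784), of 6 tenocyte markers 1 fell (58.6 to 202 and 59.8 to 256), and of 12 satellite cell markers 1 fell (2187 to 2933 and 2529 to 3422). The last was Sdc4, at 1554 against 1948 RPKM on average, which made up most of the satellite cell sum. The part of these other cells in the difference of Cyr61 was not tested.

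The remaining members did not pass in old runners. Yap1 came nearest, at 9.04, 7.56, 7.29, 7.65 and 7.73 RPKM in O(+Ex), all below the O(-Ex) mean of 9.70, with a difference of -0.29 ± 0.10 (SE; limma, adjusted p = 0.079). The lowest sedentary mouse, O(-Ex) replicate 1 at 6.97 RPKM, lay below all of them, and without it the difference was -0.37 and passed (limma, adjusted p = 0.015). Tead1 (-0.27), Amotl2 (-0.24), Vgll3 (-0.16), Lats2 (0.09), Wwtr1 (0.09) and Ankrd1 (0.23) had adjusted p-values from 0.16 to 0.59 by limma.

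In young mice no member passed with running, where limma called 1.12% of all genes. By limma 1 member had an unadjusted p under 0.05, as had 1796 of all 11337 genes. That member was again Cyr61, at 693, 663 and 663 RPKM in Y(+Ex) and from 397 over 522 to 618 in Y(-Ex). The groups did not overlap, as for 9.55% of all genes here, and the difference was 0.44 ± 0.17 in log2 (SE; limma, adjusted p = 0.19). The young and old differences of Cyr61 were themselves not distinguishable, 0.08 apart with a 95% interval of -0.37 to 0.53. Of the 8 members, 0 passed the test of the difference between old and young running effects, which limma called for 0.00882% of all genes. An unadjusted p under 0.05 by limma was found for 960 of all 11337 genes and for 1 member. That was Amotl2, with 17.4, 14.2, 13.7, 16.4 and 12.5 RPKM in O(+Ex), all below the O(-Ex) mean of 17.6, and 16.1, 15.1 and 17.8 in Y(+Ex), all above the Y(-Ex) mean of 14.0. Its 2 running effects were -0.49 ± 0.21 apart in log2 (SE; limma, adjusted p = 0.55, unadjusted p = 0.026).

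**Figure D3:**
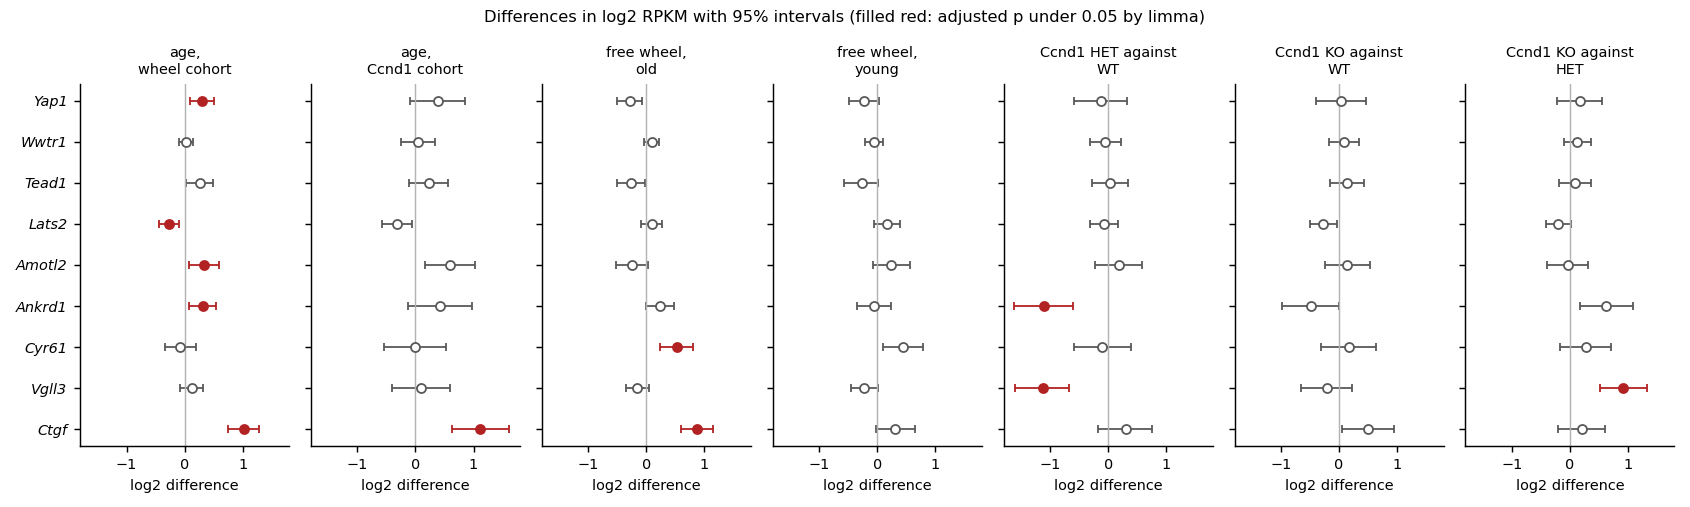
Difference in log2 RPKM of each member, and of Ctgf, in 7 comparisons, with 95% intervals as bars and filled red points for limma adjusted p-values under 0.05. Ankrd1 and Vgll3 lie at -1.11 and -1.13 in Ccnd1 HET against WT, and Ctgf at 1.02, 1.12 and 0.87 in both age comparisons and with running in old mice.

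Among the Ccnd1 genotypes the largest differences of any member were found in the heterozygous mice, where Ankrd1 and Vgll3 fell to less than the lowest Y(WT) value in every mouse. In that comparison limma called 5.39% of all genes (3.40% lower) and 2 of 8 members, and 21.2% of all genes had groups without overlap. The direction of the calls over all genes depended on the scale, with 225 higher and 386 lower as deposited and 274 and 187 under median-of-ratios (RLE) scaling, while both members still fell under RLE (-1.08 for Vgll3 and -1.06 for Ankrd1; limma, adjusted p = 0.015 and 0.029). Vgll3 stood at 12.5, 14.6, 12 and 9.94 RPKM in Y(HET) and at 29.6, 30 and 21.4 in Y(WT), a fall of 2.20-fold (log2 difference -1.13 ± 0.22, SE; limma, adjusted p = 0.014). Ankrd1 stood at 45.4, 55.9, 69.4 and 51.7 RPKM in Y(HET) and at 131, 172 and 74.8 in Y(WT), a fall of 2.17-fold (-1.11 ± 0.24, SE; limma, adjusted p = 0.021). Replicate 3 was the lowest Y(WT) library for both genes.

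The Vgll3 call was lost without Y(WT) replicate 2 (-1.05; limma, adjusted p = 0.069) and kept without any other single library. The limma call of Ankrd1 was lost without Y(WT) replicate 1 (-1.05; adjusted p = 0.05) or 2 (-0.85; 0.12) and without Y(HET) replicate 1 (-1.02; 0.055), 2 (-1.12; 0.052) or 4 (-1.09; 0.06). It was also lost with only the compared groups in the fit (0.072), with a range of 0.0011 to 0.072 over the settings. Of 12 satellite cell markers, 2 fell in the same mice, Pax7 at 17.9 against 25.2 RPKM and Myf5 at 110 against 208, with summed levels of the list of 2142 to 2699 RPKM in Y(HET) and 2583 to 3006 in Y(WT). Most of that sum was Sdc4, at 1660 against 1715 RPKM on average, which was not called. Of the 9 myofibre markers 0 passed by limma and 1 had an unadjusted p under 0.05, at summed levels of 108 to 190 and 145 to 317 RPKM. Between Y(HET) and Y(WT) limma called 5.39% of all genes, and 2615 of 11337 had an unadjusted p under 0.05. Of 10 smooth muscle and pericyte markers 1 rose and 0 fell by limma, with 6 at an unadjusted p under 0.05. Their median difference was 0.53 in log2 beside -0.06 over all genes. Their sums were 727 to 788 and 702 to 861 RPKM, a large part of which was Des, at a mean of 445 RPKM over all libraries. Of 10 endothelial markers 1 rose (145 to 158 and 106 to 152), and of 6 tenocyte markers 1 fell (70.7 to 87.5 and 27.2 to 142). The part of the marker genes in the falls of Ankrd1 and Vgll3 was not tested.

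In the knockout both genes lay between the other genotypes on average. Against Y(WT), limma called 6.99% of all genes (573 higher and 220 lower, or 426 and 271 under RLE scaling) and no member. By limma 1 member, Lats2, had an unadjusted p under 0.05 (-0.27 ± 0.11, SE; adjusted p = 0.14), as had 2910 of all 11337 genes. Vgll3 stood at 21.2, 35.1, 24.5, 16.5 and 21.7 RPKM in Y(KO), a difference from Y(WT) of -0.21 with a 95% interval of -0.65 to 0.23, and Ankrd1 at 86.4, 116, 75.6, 71.4 and 81.4, a difference of -0.49 (-0.98 to 0.00). Compared directly, Vgll3 was 1.90-fold higher in Y(KO) than in Y(HET) (0.92 ± 0.19, SE; limma, adjusted p = 0.012), with no overlap and with the call kept whichever of the 9 libraries was left out. Of all genes, limma called 6.04% in this comparison (5.15% higher) and 1 of 8 members, and 10.1% did not overlap. Over all genes 584 were higher and 101 lower as deposited, and 199 and 131 under RLE scaling, where Vgll3 was 0.84 higher (limma, adjusted p = 0.026). Ankrd1 did not overlap either but did not pass (0.63 ± 0.21, SE; limma, adjusted p = 0.091), and it passed with all 36 libraries in 1 fit (adjusted p = 0.024, range over the settings 0.024 to 0.18). Of 6 tenocyte markers 2 also rose from Y(HET) to Y(KO), with sums of 107 to 198 against 70.7 to 87.5 RPKM, and of 10 smooth muscle and pericyte markers 1 rose (714 to 891 against 727 to 788); their part was not tested. Each pair of the 3 genotype comparisons shares a group of mice, so these are not independent.

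Yap1, Wwtr1, Tead1, Amotl2 and Cyr61 passed in none of the 3 genotype comparisons. For Wwtr1 and Tead1 the 95% intervals of all 3 lay within -0.32 and 0.43. Those of Cyr61 reached from -0.59 to 0.70, which includes the 0.52 measured with running in old mice.

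**Figure D4:**
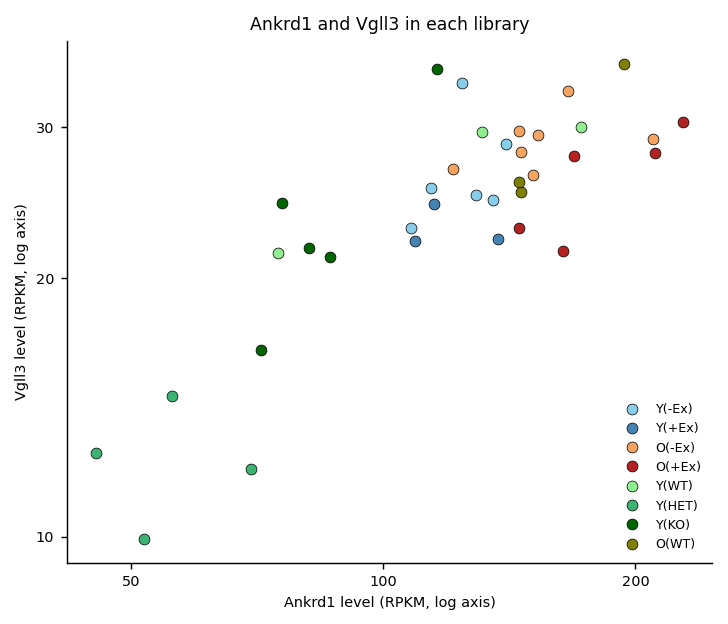
Ankrd1 against Vgll3 in RPKM, both on log axes, with 1 point per library coloured by group. The 4 Y(HET) libraries lie at the lower left, from 45.4 to 69.4 RPKM of Ankrd1 and 9.94 to 14.6 of Vgll3, apart from the other 32.

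Ankrd1 and Vgll3 also had similar patterns over the whole series, with r = 0.82 on log2 values over 36 libraries and 0.63 after the group means were subtracted. Among all other genes Ankrd1 ranked 4 by likeness to Vgll3, and Vgll3 ranked 7 by likeness to Ankrd1. These correlations share the libraries and their scaling and are given as a description. The genes most like Vgll3 were Nap1l5, Bmp4 and Asb5 (r = 0.83 each), and those most like Ankrd1 were Tmem176a and Mturn (0.85 each) and Hsd11b1 (0.83). For Yap1 they were Baz1a (0.84), Larp1b and Traf3ip2 (0.82 each), for Tead1 Dot1l (0.78), Diaph1 (0.76) and Eea1 (0.75), and for Lats2 Tmem63a (0.78), Bche and Pacsin3 (0.77 each). Wwtr1 was most like Dnajc3, Stard13 and Atp11a (0.71 each), Amotl2 most like Cyth3 (0.72), F2r (0.71) and Znhit3 (0.66), and Cyr61 most like Actr8 (0.69), Grn (0.66) and Snx17 (0.62). Yap1 and Wwtr1 had r = 0.57 with each other, and 0.70 after subtraction of group means. Cyr61 and Ankrd1, both widely used as readouts of YAP, had r = 0.30.

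The authors' deposited table gives for every gene a coefficient of correlation with Ccnd1. In the authors' deposited table it was 0.53 for Ankrd1, above 94.1% of genes, and 0.50 for Cyr61, above 92.3%. Computed here on log2 values over the 36 libraries, r with Ccnd1 was 0.44 for Ankrd1 and 0.24 for Cyr61, and without the log 0.45 and 0.46. At the other end the authors' deposited table lists Tead1 at -0.49, above 6.73% of genes, and Yap1 at -0.24. Lats2 (0.34), Vgll3 (0.17), Amotl2 (0.08) and Wwtr1 (0.01) lay between in the authors' deposited table.

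Around the members, the TEAD genes other than Tead1 changed with age. In the wheel cohort Tead2 ran from 1.74 over 2.48 to 2.78 RPKM in Y(-Ex) and from 0.981 over 1.11 to 1.24 in O(-Ex), without overlap, as for 12.4% of all genes (-1.11 ± 0.14 in log2, SE; limma, adjusted p = 3.8e-06). Tead3 ran from 8.53 over 9.87 to 12.8 and from 4.74 over 4.98 to 7.77 RPKM (-0.85 ± 0.11, SE; limma, adjusted p = 5.4e-06). Tead4, at 0.81 and 0.414 RPKM on average, also fell (-1.13 ± 0.40, SE; limma, adjusted p = 0.028). This value moved to -0.54 with a pseudocount of 0.5, and the call was lost without O(-Ex) replicate 1 or 4 (limma, adjusted p up to 0.062). Tead2 (-1.01) and Tead3 (-0.68) were also called for age in the Ccnd1 cohort (limma, adjusted p = 0.001 and 0.0022), a comparison not independent of that in the wheel cohort. Of the 9 measured coactivator, TEAD and VGLL genes, 1 rose (Yap1) and 3 fell with age in the wheel cohort, where limma called 38.3% of all genes. The list had a median difference of 0.03 beside 0.01 over all genes. Vgll4, a cofactor that competes with YAP for TEAD, was at 48.9 against 66.5 RPKM in the Ccnd1 cohort (-0.45; limma, adjusted p = 0.035) and did not pass in the wheel cohort (-0.21; 0.21). The former call was kept in 1 of 6 fits without 1 library, that without O(WT) replicate 1 (-0.57 to -0.34; limma, adjusted p up to 0.15). It was lost with only the compared groups, all 36 libraries or the replicate block in the fit (up to 0.067). Vgll2, a relative of Vgll3, was also higher in Y(KO) than in Y(HET), at 55.8 against 29.6 RPKM (0.89 ± 0.16, SE; limma, adjusted p = 0.006).

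Of 17 genes of the kinase cascade, 1 rose (Mob1b, 0.32) and 4 fell with age in the wheel cohort, a smaller share than the 38.3% called among all genes. Among them were the protocadherins Fat1 (-0.52) and Dchs1 (-0.55) and the member Lats2. The Mob1b call was lost without Y(-Ex) replicate 2 (limma, adjusted p = 0.058) and with the replicate block (0.062). The related kinase Lats1 did not pass (0.09; limma, adjusted p = 0.4). Frmd6, a FERM protein upstream of the kinases, was, like Vgll3, lowest in the heterozygous mice, with 81.4 RPKM in Y(HET) against 113 in Y(WT) (-0.47; limma, adjusted p = 0.014) and 103 in Y(KO) (0.34; 0.021). The difference from Y(WT) was not called without Y(WT) replicate 2 (limma, adjusted p = 0.08) or with only the compared groups (0.059). That from Y(KO) was not called without Y(HET) replicate 3 or 4 (limma, adjusted p up to 0.068), under RLE scaling (0.26; 0.069), with only the compared groups (0.053) or with the replicate block. In old runners Frmd6 was at 96.3 against 117 RPKM (-0.28; limma, adjusted p = 0.047), a call kept in 2 of 12 fits without 1 library, those without O(-Ex) replicate 1 or O(+Ex) replicate 4 (-0.33 to -0.21; up to 0.16). It was lost without trend (limma, adjusted p = 0.064), with only the compared groups (0.083) and with the replicate block (0.13). Of 18 regulators at junctions and on actin, 6 rose and 5 fell with age in the wheel cohort, led by Arhgef2, a RhoA exchange factor (20.6 against 46.9 RPKM, -1.19 ± 0.10, SE; limma, adjusted p = 2.4e-08), and Limd1, a LIM protein that binds LATS kinases (43.0 against 28.8 RPKM, 0.57 ± 0.07, SE; adjusted p = 3e-06). The junction protein Tjp1 fell (-0.54). The age comparisons of the 2 cohorts are not independent. Both Arhgef2 (-1.14) and Limd1 (0.63) were also called in the Ccnd1 cohort, where 2 of the 18 rose and 4 fell beside 15.8% of all genes called. Wtip, another LIM protein, also passed there with age (0.36; limma, adjusted p = 0.035), as did Lpp, a LIM protein of focal adhesions (-0.38; 0.022). Each of these 3 LIM protein calls was kept in 2 of 6 fits without 1 library. Limd1 passed only without Y(WT) replicate 2 or O(WT) replicate 3 (others up to 0.1 by limma), Wtip without Y(WT) replicate 1 or O(WT) replicate 2 (up to 0.14), and Lpp without Y(WT) replicate 3 or O(WT) replicate 1 (up to 0.081). The limma calls of Wtip (adjusted p = 0.081) and Lpp (0.075) were also lost with only the compared groups, and that of Wtip with all 36 libraries in the fit (0.17) and with the replicate block. Wtip was higher in Y(KO) than in Y(WT) as well (0.46; limma, adjusted p = 0.016), though not without Y(WT) replicate 2 or 3 (up to 0.075) or with all 36 libraries or the replicate block (range over the settings 0.016 to 0.092).

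**Figure D5:**
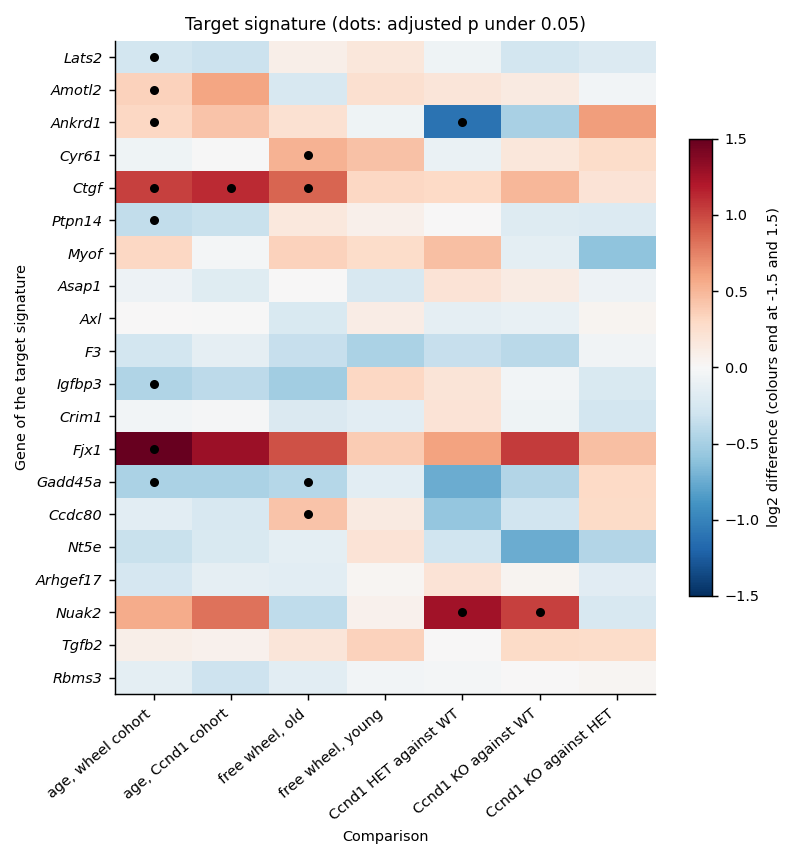
Log2 differences of the 20 measured genes of the target signature (rows) in 7 comparisons (columns), red for higher and blue for lower, with black dots for limma adjusted p-values under 0.05. Ctgf is the gene with dots in 3 columns, both age comparisons and running in old mice.

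The wider signature of YAP and TEAD targets, of which 20 of 22 genes were measured, held both higher and lower differences in every comparison. With age in the wheel cohort 4 rose and 4 fell, near the 38.3% called among all genes, with a median of -0.07 beside 0.01 over all genes. Among them were Fjx1, a Golgi protein of the Fat pathway (1.12 against 0.281 RPKM, 2.17, or 0.96 with a pseudocount of 0.5; limma, adjusted p = 0.011 and 0.03), the stress gene Gadd45a (195 against 268 RPKM, -0.47; 0.00052) and the phosphatase Ptpn14 (-0.37; 0.012). With running in old mice, where limma called 7.39% of all genes, 3 rose, namely Ctgf, Cyr61 and the matrix gene Ccdc80 (18.5 against 13.8 RPKM, 0.43; limma, adjusted p = 0.02). Gadd45a fell (-0.43; 0.013), and the list had a median of -0.07 beside -0.01 over all genes. Its summed level was 1664 to 2341 RPKM in O(+Ex) and 1287 to 1571 in O(-Ex), without overlap, and Ctgf and Cyr61 alone had means of 759 and 693 RPKM in O(+Ex). Without O(+Ex) replicate 3 the limma calls of Ccdc80 (adjusted p = 0.06) and Gadd45a (0.053) were lost, the latter also with all 36 libraries in the fit (0.052). In young mice 0 passed by limma, with 3 at an unadjusted p under 0.05 beside 1796 of all 11337 genes. In Y(HET), where limma called 5.39% of all genes against Y(WT), 1 rose, the kinase gene Nuak2 (3.78 against 1.56 RPKM, 1.26; limma, adjusted p = 0.021), and 1 fell, Ankrd1. Nuak2 was also higher in Y(KO) (3.18 RPKM, 1.02; limma, adjusted p = 0.034). Its call in Y(HET) was kept in 3 of 7 fits without 1 library, those without Y(WT) replicate 1 or Y(HET) replicate 1 or 3 (1.10 to 1.49; limma, adjusted p up to 0.099). That in Y(KO) was kept in 3 of 8, without Y(WT) replicate 1 or Y(KO) replicate 2 or 4 (0.85 to 1.24; limma, adjusted p up to 0.12), and lost with only the compared groups and with the replicate block (range over the settings 0.034 to 0.097). Ctgf (also Ccn2), the paralogue of Cyr61, passed in 3 comparisons, among them the age comparisons of both cohorts, which are not independent. Ctgf ran from 153 over 214 to 257 RPKM in Y(-Ex), from 330 over 413 to 519 in O(-Ex), and stood at 664, 773, 918, 804 and 639 in O(+Ex).

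None of these 3 groups overlapped, which held for 3.94% of all genes between O(+Ex) and O(-Ex). Ctgf rose 2.03-fold with age (1.02 ± 0.13 in log2, SE; limma, adjusted p = 3.8e-06) and a further 1.83-fold with running in old mice (0.87 ± 0.13, SE; adjusted p = 0.0015), while the 3 Y(+Ex) mice stood at 252, 248 and 260 (0.31; adjusted p = 0.36). The difference between the 2 running effects, 0.55 ± 0.21, did not pass (limma, adjusted p = 0.52). Ctgf lay below Cyr61 in 21 of 21 young libraries and above it in 6 of 15 old ones.

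Lists of other transcription programmes with overlapping targets were read in the same way. Of 15 genes of serum response factor and actin signalling, 1 rose and 7 fell with age in the wheel cohort, where 20.5% of all genes rose and 17.8% fell. The list holds the factor gene Srf (-0.28) and its cofactor genes Mkl1 and Mkl2 (-0.50) beside targets, and these were among the 7. Of lowest p were smooth muscle actin Acta2 (126 against 212 RPKM, -0.75; limma, adjusted p = 4.3e-05) and Mkl1, the gene of an actin-sensing cofactor (-0.84; 0.00012). Acta2 is also counted among the smooth muscle and pericyte markers. Tagln2 was the gene that rose (0.25; limma, adjusted p = 0.04), a call lost without trend, with only the compared groups and in 10 of 13 fits without 1 library, all except O(-Ex) replicate 3 or 7 and Y(-Ex) replicate 5 (0.21 to 0.31; up to 0.092). In the age comparison of the Ccnd1 cohort, not independent of that in the wheel cohort, Mkl1 (-0.62) and Acta2 (-0.84) were also called lower. Acta2 was not called without Y(WT) replicate 3 or O(WT) replicate 3 (limma, adjusted p up to 0.075). Acta2 rose with running in old mice to 184 RPKM (0.55; adjusted p = 0.011), and the gene Srf fell with running at both ages (-0.39 in old and -0.50 in young mice; limma, adjusted p = 0.0041 and 0.0086). In young mice the Srf call was lost without Y(+Ex) replicate 1 or 2 and with only the compared groups (limma, adjusted p up to 0.091). Actg1, a cytoplasmic actin gene, fell with running in young mice (855 against 1298 RPKM, -0.61; limma, adjusted p = 0.038). That call was lost without trend, with only the compared groups and with the replicate block (limma, adjusted p up to 0.14). It was also lost in 6 of 9 fits without 1 library, all except Y(-Ex) replicate 1 or 3 and Y(+Ex) replicate 3 (-0.76 to -0.47; limma, adjusted p up to 0.25). Of 20 immediate early genes, 1 rose and 12 fell with age in the wheel cohort, the former being Fosl1 (899 against 435 RPKM, 1.04; limma, adjusted p = 1e-07). Egr2 (-0.93) and Fosl2 (-0.39) were the falls of lowest p. With age in the Ccnd1 cohort, where limma called 15.8% of all genes, 1 rose, Fosl1 (0.98), and 4 fell, among them Egr2 (-1.01) and Klf6 (-0.72). Klf2 rose from Y(WT) to Y(HET) (1.00; limma, adjusted p = 0.0096). The part of these programmes in the differences of the members was not tested.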

How the data were processed

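The authors deposited RPKM values for 11337 genes in 36 libraries, without zeros. They also deposited each gene's correlation with Ccnd1, a score of unstated method. Trim Galore, STAR, featureCounts (Subread) and build mm10 are named, with no versions, per the submitters' processing notes. How counts became RPKM, the strand setting and the depth of each library: not given in the sources used here. The precision of a value is therefore known only from the spread between mice. The centred log2 matrix had rank 29 of 35, and with the controls of the 2 cohorts merged the residual rank was 24 where 30 was expected, so 6 directions of variation were missing. Limma takes no account of this, and its effect on p-values was not tested.

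Each library is 1 mouse. RPKM values were log2 transformed without a pseudocount and fitted with limma 3.58.1 in R 4.3.3, with 1 mean per group, within the wheel cohort (21 libraries) and the Ccnd1 cohort (15). Tests used trend and robust moderation, were two-sided and were adjusted over all 11337 genes (Benjamini-Hochberg) in 8 comparisons. The script was checked on simulated data. Alternatives were RLE scaling, a pseudocount of 0.5, a mean of at least 1 RPKM, moderation with neither trend nor robust, fits of only the compared groups or of all 36 libraries, a replicate block and leaving out each library. The moderation with both options off is called without trend throughout. Gene positions came from GENCODE M21 (mm10) and promoters from RefSeq (GRCm38.p6).

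The members and gene lists were chosen with earlier results of these data known. Beside the members, the text names up to 2 called genes in each direction by lowest p for each list and comparison, and always Ctgf, Tead2, Tead3, Tead4, Vgll4 and Lats1. Srf and Mkl2 are also named with age to tell what their list holds. A gene that this rule names is not reported here. For each member it names the 3 genes of highest r over 36 libraries, gene-model names left out. Marker genes named singly were chosen after their values were seen, as was the share of Tead1 among the TEAD genes.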

Additional observations from a re-analysis of the deposited data

Results flagged for a closer look

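In 70 groups of 4 to 10 libraries, tested 1 gene at a time for the members and the 6 genes followed beside them, 2 held a library farther from the others than a Dixon test at 95% allows, and chance gives about 1 in 20. Yap1 in O(+Ex) replicate 1 stood at 9.04 RPKM, where the next library was at 7.73 and the lowest at 7.29. Tead3 in Y(HET) replicate 3 stood at 7.34 RPKM, where the next was at 9.15 and the highest at 9.5.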

How the results depend on the processing

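With the deposited scale replaced by RLE scaling, a pseudocount of 0.5, a mean of at least 1 RPKM or moderation without trend, the number of members called stayed at 4 for age in the wheel cohort, 1 for running in old mice, 2 for HET against WT, 1 for KO against HET and 0 in the other comparisons. With all 36 libraries in 1 fit it was 2 for age in the wheel cohort, 1 for age in the Ccnd1 cohort and 2 for KO against HET. With only the compared groups it was 3 for age in the wheel cohort, 0 for running in old mice, 1 for age in the Ccnd1 cohort and 1 for HET against WT. The replicate block gave 2 for age in the wheel cohort (Amotl2 and Ankrd1 passed) and 1 for HET against WT (Vgll3 passed), and turned Tead1 to -0.04 for old minus young running and to -0.01 for KO against HET. Under RLE scaling Wwtr1 was 0.01 in HET against WT. The cause of these changes was not tested.

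Whether replicate numbers pair the mice is not known. Libraries of the same number deviated together with r = -0.26 to 0.30, and in no comparison did all pairs exceed 0.1. For running in old mice 4 of 5 pairs did, with a mean r of 0.11 beside -0.02 for libraries of other numbers. With a replicate block, Yap1 (0.27; limma, adjusted p = 0.066), Lats2 (-0.22; 0.053) and Tead4 (-1.12; 0.051) did not pass for age in the wheel cohort, nor Ankrd1 for HET against WT (-1.06; 0.064), and no other call of a member changed. Libraries correlated best with their own number in 3 of 5 cases for running in old mice and 2 of 3 for KO against WT, and in at most 2 of 4 elsewhere.

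The count over all genes moved by over 1.5 times as follows. Running in young mice (127 genes) gave 84 without trend, 22 with only the compared groups and 14 with the replicate block. KO against WT (793) gave 379 with only the compared groups and 1 with the block, HET against WT (611) gave 300 and 179, and KO against HET (685) gave 327 and 262, and 330 under RLE scaling. With 1 library left out the counts ran from 351 to 923 for running in old mice (838), 5 to 205 in young mice, 873 to 1366 for age in the Ccnd1 cohort (1790), 98 to 938 for KO against WT, 68 to 621 for HET against WT, 265 to 743 for KO against HET and 1 to 5 for old minus young running (1).

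With 1 library left out at a time, the members called ranged from 2 to 4 for age in the wheel cohort, 0 to 2 for running in old mice, 0 to 2 for HET against WT and 1 to 1 for KO against HET, and stayed at 0 elsewhere. The sign turned only for differences near 0 that had not passed. These ranged, for age in the wheel cohort, from -0.01 to 0.05 for Wwtr1 and from -0.13 to 0.01 for Cyr61. For age in the Ccnd1 cohort they ranged from -0.05 to 0.11 for Wwtr1, -0.09 to 0.08 for Cyr61 and -0.06 to 0.19 for Vgll3. For running in young mice Ankrd1 ranged from -0.16 to 0.01. For old minus young running the ranges were -0.19 to 0.03 for Yap1, -0.09 to 0.07 for Tead1, -0.04 to 0.18 for Cyr61 and -0.01 to 0.13 for Vgll3. For KO against WT Yap1 ranged from -0.05 to 0.10. For HET against WT the ranges were -0.28 to 0.01 for Yap1, -0.14 to 0.04 for Wwtr1, -0.05 to 0.13 for Tead1 and -0.21 to 0.05 for Cyr61. For KO against HET they were -0.01 to 0.18 for Tead1 and -0.16 to 0.11 for Amotl2. Depth per library is unknown, and groups of 3 to 7 mice limit what could be called.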
